A study of Homo sapiens with 12 samples.

Results

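The genes described here are 7 of 17958 measured: 4 enzymes that make or break down the transmitter GABA (GAD1, GAD2, ABAT and ALDH5A1), 1 GABA-A receptor subunit (GABRA3) and 2 markers of neurons (INA and STMN2). They were chosen by name, with earlier results of these data known, and each was read from the probe set that carries its symbol and no other; all 7 had a single such probe set, so the mean signal that would have decided between several was not needed. The cells were 231BR, a brain-seeking derivative of the human breast cancer line MDA-MB-231, marked with EGFP. All received either vehicle or 10 nM estradiol, and were grown without other cells or for 24 h with mouse astrocytes, after which EGFP-positive cells were sorted and their RNA was put on single-colour Affymetrix arrays. This gave 4 groups of 3 arrays: vehicle alone and vehicle with astrocytes, estradiol alone and estradiol with astrocytes. The labels give no purity for the sort. Nor do they tell if the replicates of a group came from different cultures, and the p-values below rest on the spread between replicates of whatever kind. In RNA from many cells, a change in the share of cells that make a transcript and a change in RNA per cell cannot be told apart.

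GABA is made from glutamate by glutamate decarboxylases, of which GAD1 and GAD2 encode one each. It is broken down in mitochondria by GABA transaminase, the product of ABAT, and then by succinic semialdehyde dehydrogenase, the product of ALDH5A1, which passes its carbon to the citric acid cycle. GABA-A receptors are chloride channels built of several subunits, and GABRA3 encodes the alpha 3 subunit. INA encodes alpha-internexin, a neuronal intermediate filament protein, and STMN2 encodes stathmin-2, a tubulin-binding protein of growing axons. Breast cancer cells that colonise the brain have been described as taking up GABA and turning it into energy, which is the setting in which these genes are usually read together.

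With astrocytes, GAD2, ABAT, INA and STMN2 had higher signals and GABRA3 a lower one, while GAD1 and ALDH5A1 did not pass the test (limma across all genes, Benjamini-Hochberg adjusted p under 0.05). Signals are log2 values, and a difference is signal with astrocytes minus signal without. Over both treatments, 6 arrays against 6, GAD2 rose 1.91-fold, STMN2 1.86-fold, ABAT 1.71-fold and INA 1.70-fold, and GABRA3 fell 2.17-fold. No difference with estradiol passed. Of the 7 genes 5 passed in this combined comparison (4 higher, 1 lower), where 47.5% of all genes passed (24.5% higher and 23% lower). Of all genes that passed, 51.5% were higher, and this share was 39.0% with each array centred on its median and 59.6% in a fit that took the SD of all signals on an array as covariate (the covariate fit). In the covariate fit STMN2 was the only one of the 7 that passed, where 14.4% of all genes did, a share like that of the 7. This SD was itself lower on most arrays with astrocytes, so the covariate fit cannot part it from the culture.

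The promoters of the 3 genes below are shown because their signals rose with astrocytes. They are also shown because the GAD2 promoter holds the core of a neuronal repressor's motif, which the others lack. RefSeq promoter windows (GRCh38.p14) were found for 5 of the 7 genes, GAD1, GAD2, ABAT, ALDH5A1 and INA, but not for GABRA3 and STMN2. The 250 bases before the annotated gene start are printed 5′ to 3′, all on the plus strand, at chr10:26216122-26216371 for GAD2, chr16:8674367-8674616 for ABAT and chr10:103276888-103277137 for INA. Capitals mark the core of the RE1 element, to which REST binds (CAGCACC, any 2 bases, GGACAG), and the GC box (GGGCGG), each searched on both strands.
GAD2: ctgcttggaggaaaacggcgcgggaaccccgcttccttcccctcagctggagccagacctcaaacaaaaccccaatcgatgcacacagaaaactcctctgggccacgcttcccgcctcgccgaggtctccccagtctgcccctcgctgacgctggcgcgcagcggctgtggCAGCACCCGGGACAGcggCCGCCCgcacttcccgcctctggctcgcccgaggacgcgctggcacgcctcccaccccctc
ABAT: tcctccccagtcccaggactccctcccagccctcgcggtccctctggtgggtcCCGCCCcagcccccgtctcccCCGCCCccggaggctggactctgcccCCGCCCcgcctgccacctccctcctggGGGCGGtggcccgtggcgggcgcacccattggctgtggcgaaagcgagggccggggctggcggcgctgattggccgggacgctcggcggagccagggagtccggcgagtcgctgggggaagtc
INA: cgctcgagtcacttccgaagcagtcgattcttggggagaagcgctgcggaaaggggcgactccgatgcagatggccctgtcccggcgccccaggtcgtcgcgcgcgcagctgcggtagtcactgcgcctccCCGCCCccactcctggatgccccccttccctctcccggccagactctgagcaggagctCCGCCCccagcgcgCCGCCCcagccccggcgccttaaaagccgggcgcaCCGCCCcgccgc

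The RE1 core was present in the GAD2 window, starting at position −79 from the gene start, and in 0.0456% of all 35116 promoter windows of the same length. These letters were searched after the GAD2 window had been seen. RefSeq also gives 1 further window for GAD2 and 3 for ABAT, at later starts; they are not printed, lack the RE1 core, and those of ABAT hold no GC box and have a G and C content of 52.4%, 53.2% and 38.4%. The GC box was found once in the printed GAD2 window and 4 times each in those of ABAT and INA, and 42.6% of all windows held it. The printed windows had a G and C content of 69.2% for GAD2, 77.2% for ABAT and 72.8% for INA, against a median of 58.0% over all windows. The letters of a full estrogen response element (GGTCA, any 3 bases, TGACC), searched on both strands, were in none of the windows of the 5 genes and in 0.0399% of all windows, and no match says only that these letters are not in these 250 bases.

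Signals were spread less widely on the arrays with astrocytes. The SD of all probe sets on an array ranged from 2.04 to 2.22 without astrocytes and from 1.62 to 2.10 with them, and the lowest 2 were replicate 2 of estradiol with astrocytes (1.62) and replicate 2 of vehicle with astrocytes (1.82). Genes of low signal were higher with astrocytes and genes of high signal lower. The deposited values carry no detection call, so a low signal cannot be told from background. Among 6 markers of MDA-MB-231, VIM, an intermediate filament gene of mesenchymal cells, had group means from 10.1 to 10.7. In the combined comparison 3 of the 6 fell, with EGFR at −1.45 and CD44 at −0.93, while none fell in the covariate fit. The 1 that rose was S100A4, by 0.62, and its mean in vehicle alone was 4.77. Of 6 luminal breast markers, listed as lacking in the line, 1 rose. This was ESR1, the estrogen receptor alpha gene, by 0.80 (adjusted p = 0.0256), with group means from 3.45 to 4.45. No luminal marker rose with quantile normalization, in the covariate fit or without replicate 2 of both astrocyte groups. FOXA1 (6.55) and ERBB2 (5.69) lay above the array medians in vehicle alone, so these signals do not show all 6 as absent.

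GAD2 was higher on every array with astrocytes than on any array without. Its log2 signal was 2.76, 2.59 and 2.90 in vehicle alone and 2.70, 2.80 and 2.79 in estradiol alone. With astrocytes it was 3.36, 3.84 and 3.75 under vehicle and 3.30, 4.52 and 3.36 under estradiol. The 2 groups without astrocytes overlapped, the 2 groups with astrocytes overlapped, and replicate 2 of estradiol with astrocytes stood above all others. The difference was 0.90 (SE 0.30, adjusted p = 0.108) under vehicle and 0.96 (SE 0.30, adjusted p = 0.0511) under estradiol, and neither passed alone. Averaged over both treatments it was 0.93 (SE 0.21, 95% interval 0.47 to 1.39, adjusted p = 0.00818). All 12 values lay below the median of their array.

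GAD1, which encodes the other decarboxylase, gave no such separation. The log2 signal of GAD1 was 4.70, 4.54 and 4.36 in vehicle alone and 4.73, 4.31 and 4.34 in estradiol alone, and it was 4.42, 4.64 and 4.84 in vehicle with astrocytes and 4.45, 5.07 and 4.09 in estradiol with astrocytes. All 4 groups overlapped. The combined difference was 0.09 (SE 0.18, adjusted p = 0.694), with a 95% interval of −0.31 to 0.48, which leaves room for a change of either sign, and its sign turned when arrays were centred, quantile normalized or given the SD covariate. The genes are read by different probes, and the difference between them was not tested.

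ABAT, the first enzyme of GABA breakdown, was higher with astrocytes. Signals of ABAT were 3.51, 3.73 and 3.95 in vehicle alone and 3.53, 3.73 and 3.73 in estradiol alone, against 3.95, 4.94 and 4.32 in vehicle with astrocytes and 4.13, 5.02 and 4.44 in estradiol with astrocytes. The lowest array with astrocytes and the highest without were apart by less than the rounding of these values, and replicate 2 was the highest in both astrocyte groups. The difference was 0.67 (SE 0.29, adjusted p = 0.159) under vehicle, 0.87 (SE 0.29, adjusted p = 0.0590) under estradiol and 0.77 (SE 0.20, adjusted p = 0.0140) for both.

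ALDH5A1, the second enzyme of that route, had lower means with astrocytes, but its difference did not pass. On the log2 scale ALDH5A1 read 4.98, 4.63 and 4.16 in vehicle alone and 4.69, 4.49 and 4.83 in estradiol alone, and it was 4.33, 4.15 and 4.40 in vehicle with astrocytes and 3.99, 4.56 and 4.03 in estradiol with astrocytes. The groups overlapped under both treatments. The combined difference was −0.39 (SE 0.17, adjusted p = 0.0801), and it passed without vehicle alone replicate 3 (adjusted p = 0.0326) or without estradiol with astrocytes replicate 2 (adjusted p = 0.0246). It passed too with quantile normalization (−0.54, adjusted p = 0.0298) and with each array centred on its median (−0.55, adjusted p = 0.0302), while the covariate fit gave −0.45 (adjusted p = 0.174).

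GABRA3 was the member that fell. GABRA3 read 7.33, 7.11 and 6.70 in vehicle alone and 7.28, 7.06 and 7.19 in estradiol alone, and it was 6.64, 5.79 and 5.88 in vehicle with astrocytes and 6.87, 6.17 and 4.61 in estradiol with astrocytes, the last given in the order replicate 1, 3 and 2. Within each treatment no array with astrocytes reached the lowest array without. The difference was −0.95 (SE 0.46, adjusted p = 0.197) under vehicle, −1.29 (SE 0.46, adjusted p = 0.0686) under estradiol and −1.12 (SE 0.33, adjusted p = 0.0198) for both. The combined call was lost without vehicle alone replicate 1 (adjusted p = 0.0523), without vehicle with astrocytes replicate 2 (adjusted p = 0.0509) and with quantile normalization (−0.86, adjusted p = 0.0789). Without estradiol with astrocytes replicate 2, where GABRA3 was lowest, the difference under estradiol was −0.66 in place of −1.29.

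INA was the only member that passed in a single treatment. Its log2 signal was 2.73, 2.62 and 3.05 in vehicle alone and 2.54, 2.92 and 2.74 in estradiol alone, against 3.02, 3.79 and 3.40 in vehicle with astrocytes and 3.42, 4.09 and 3.47 in estradiol with astrocytes. The groups overlapped by 1 array under vehicle and did not overlap under estradiol. The difference was 0.61 (SE 0.26, adjusted p = 0.157) under vehicle, 0.93 (SE 0.26, adjusted p = 0.0430) under estradiol and 0.77 (SE 0.18, adjusted p = 0.00984) for both. Under estradiol 1 of the 7 passed, where 13.2% of all genes did, and the call on INA held in 3 of 12 fits that each left out 1 array. It held without estradiol with astrocytes replicate 1 and without vehicle with astrocytes replicate 1 or 2, and was lost without any other single array, with an adjusted p of up to 0.165.

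STMN2 had the smallest p of the 7 in the combined comparison. STMN2 read 3.20, 3.32 and 3.97 in vehicle alone and 3.55, 3.74 and 3.48 in estradiol alone, against 4.51, 4.71 and 4.49 in vehicle with astrocytes and 4.04, 4.45 and 4.41 in estradiol with astrocytes. Every array with astrocytes was above every array without. On 11 of the 12 arrays STMN2 lay below the median of the array. The difference was 1.07 (SE 0.23, adjusted p = 0.0763) under vehicle, 0.71 (SE 0.23, adjusted p = 0.0558) under estradiol and 0.89 (SE 0.16, 95% interval 0.54 to 1.25, adjusted p = 0.00450) for both. With the array SD as covariate the combined difference was 0.61 (SE 0.17, adjusted p = 0.0290) and that under vehicle 0.82 (adjusted p = 0.0299), and in that fit the combined difference of GAD2 was 0.35 (adjusted p = 0.124), of ABAT 0.22 (adjusted p = 0.350), of INA 0.31 (adjusted p = 0.167) and of GABRA3 −0.07 (adjusted p = 0.802).

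**Figure D1:**
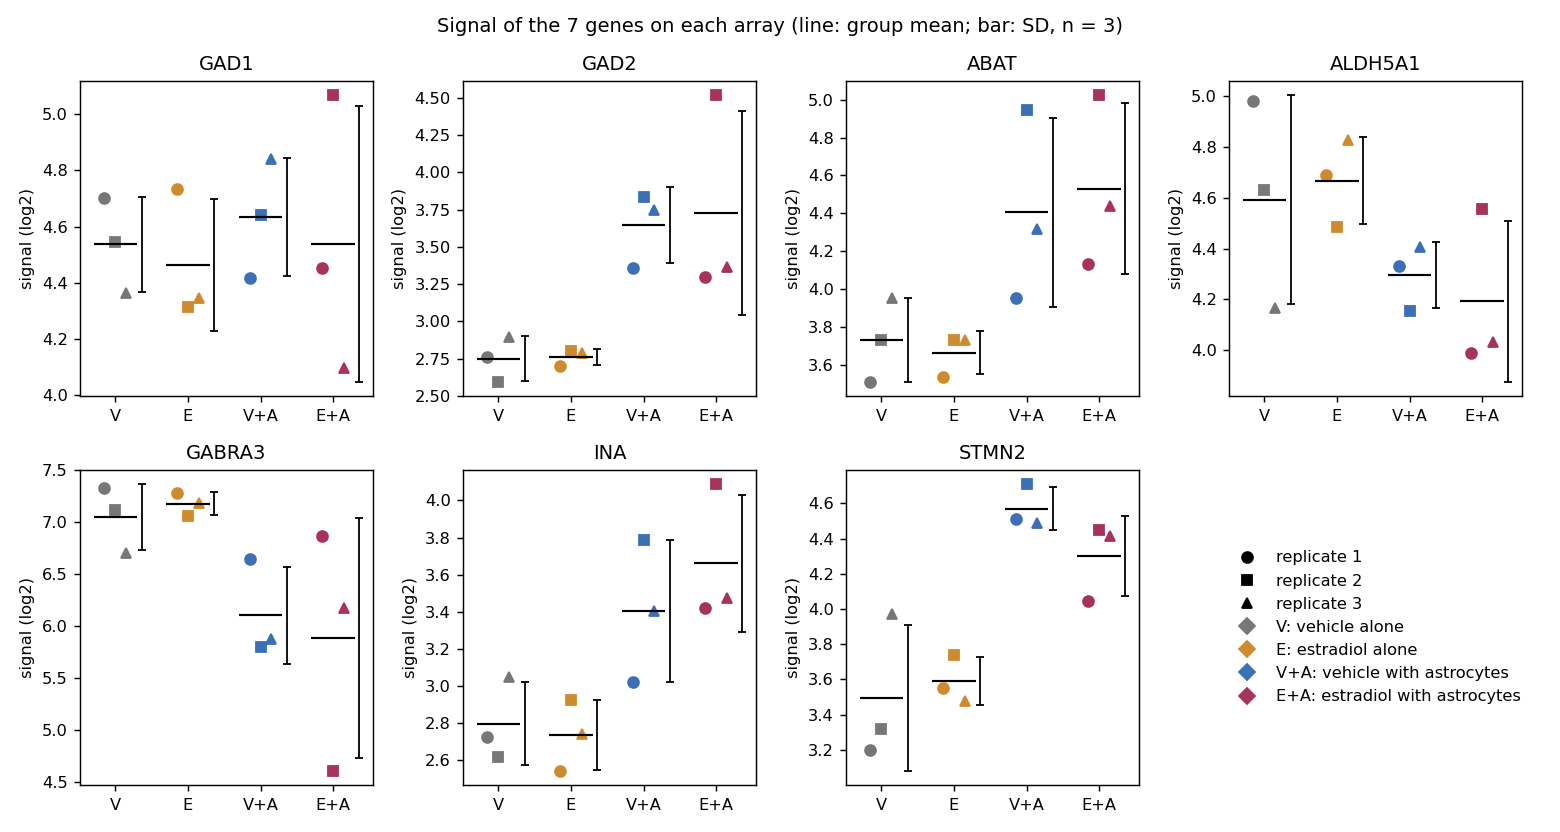
Log2 signal of each of the 7 genes on the 12 arrays, by group (V vehicle alone, E estradiol alone, V+A vehicle with astrocytes, E+A estradiol with astrocytes), with replicates as marker shapes, the group mean as a line and the SD as a bar (n = 3). GAD2, ABAT, INA and STMN2 are higher and GABRA3 lower in the groups with astrocytes, and replicate 2 of estradiol with astrocytes is the highest array for GAD2, ABAT and INA and the lowest for GABRA3.

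**Figure D2:**
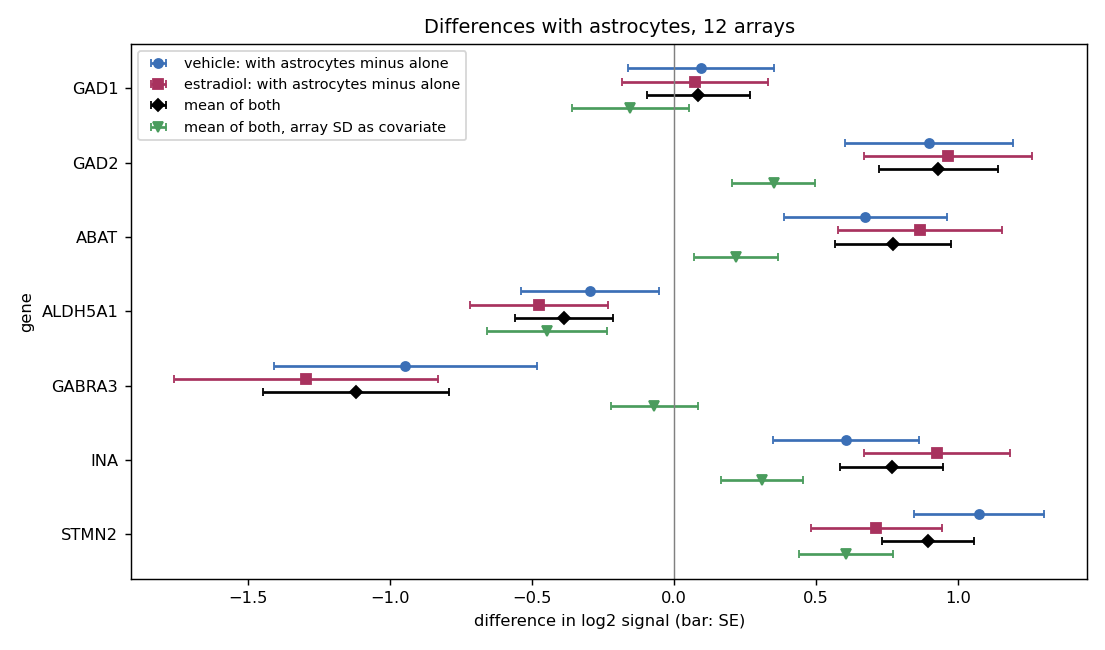
Difference in log2 signal with astrocytes, with its SE, under vehicle, under estradiol, for both, and for both with the array SD as covariate. With the covariate the 5 differences past the threshold shrink, GABRA3 from −1.12 to −0.07 and STMN2 from 0.89 to 0.61.

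Within a treatment, none of the 7 genes passed under vehicle, where 0.0557% of all genes did, and INA alone passed under estradiol. The unadjusted p was under 0.05 for 4 of 7 under vehicle (28.2% of all genes) and for 5 of 7 under estradiol (43.9%). Groups did not overlap for 4 of the genes under vehicle (GAD2, ABAT, GABRA3 and STMN2, against 41.8% of all genes) and for 5 under estradiol (these and INA, against 50.9%). In the combined comparison the 6 arrays of each kind did not overlap for GAD2, ABAT and STMN2, all higher with astrocytes, as for 12.2% of all genes. The median combined difference of the 7 was 0.77, beside 0.07 over all genes, which takes no account of the level of signal (given below). Both single-treatment comparisons and the combined one use the same arrays, and their values are given side by side only. Without replicate 2 of both astrocyte groups the same 5 genes passed in the combined comparison, joined by ALDH5A1 (−0.44, adjusted p = 0.0435), with GAD2 at 0.69, ABAT at 0.51, INA at 0.56, STMN2 at 0.82 and GABRA3 at −0.72.

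Level of signal moved with these differences. When all genes were divided into 10 deciles by their mean over the 12 arrays, GAD2 and INA lay in decile 2, where the median combined difference was 0.45 and 88.5% of genes were positive. ABAT and STMN2 lay in decile 3 (median 0.46, 82.8% positive), GAD1 and ALDH5A1 in decile 4 (median 0.43, 72.3% positive) and GABRA3 in decile 8, where the median was −0.61 and 21.5% were positive. Each of the 5 genes that passed thus had the sign of its decile, with a difference larger than the decile's median. The 5 were picked by passing on these same differences, which favours large ones, so this comparison cannot part them from their decile. The upper quartile was 0.63 in decile 2 (GAD2 0.93, INA 0.77) and 0.71 in decile 3 (STMN2 0.89, ABAT 0.77). The lower quartile of decile 8 was −1.10, beside −1.12 for GABRA3. ALDH5A1, at −0.39, had the opposite sign to its decile, and GAD1, at 0.09, lay below its decile's median. The part of the signal range in these differences was not tested. The covariate fit cannot part it from the culture, since the array SD was lower on most arrays with astrocytes.

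**Figure D3:**
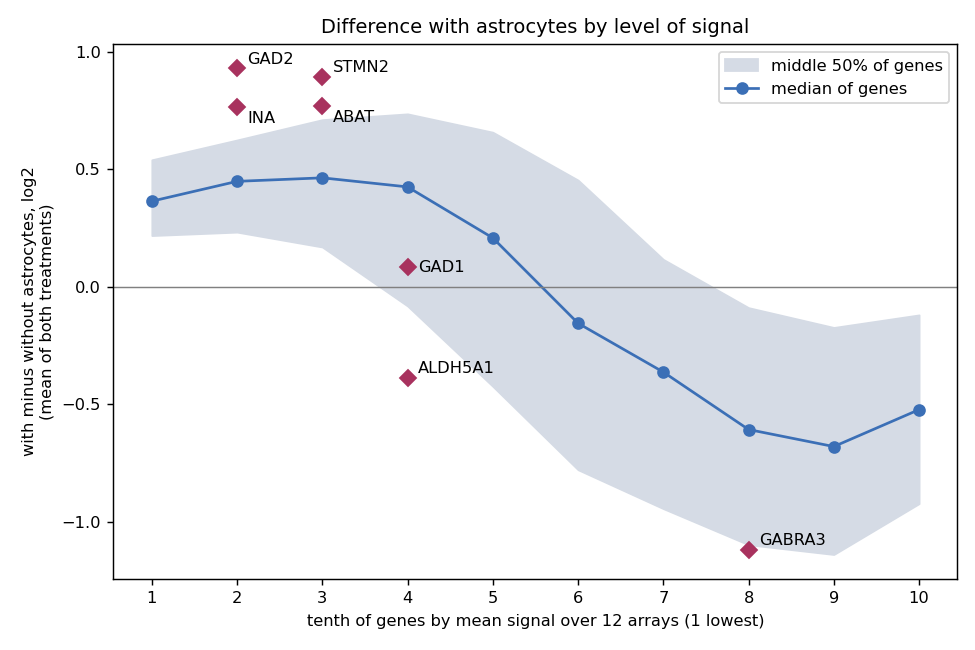
Combined difference with astrocytes (log2) against the tenth of genes by mean signal (here called decile), 1 lowest to 10 highest, with the median (line) and the middle 50% (band) of all genes and the 7 genes as diamonds. The median runs from 0.36 in decile 1 to −0.52 in decile 10; GAD2, INA, STMN2 and ABAT lie above the band, GABRA3 and ALDH5A1 below it.

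Within one kind of culture, some members varied with the SD of the array. Over the 6 arrays with astrocytes GABRA3 rose with the array SD (r = 0.974, rho = 1.0, exact permutation p = 0.00139 and p = 0.00278, adjusted over 14 relations p = 0.00648 and p = 0.0130), and r was 0.839 without the 2 arrays farthest from the median SD. GAD2 fell with it (r = −0.955, rho = −1.0, the same p-values), with r = −0.783 without those 2 arrays. ABAT gave r = −0.918 (rho = −0.886, exact permutation p = 0.00556 and p = 0.0333, adjusted p = 0.0130 and p = 0.0778) and r = −0.989 without them. INA gave r = −0.889 (rho = −0.714, exact permutation p = 0.0194 and p = 0.136, adjusted p = 0.0340 and p = 0.173) and r = −0.967 without them. For STMN2 the relation did not pass (r = −0.489, rho = −0.429, exact permutation p = 0.313 and p = 0.419, adjusted p = 0.313 and p = 0.419), with r = −0.764 without those 2 arrays. Nor did it for GAD1 (r = −0.688, rho = −0.714, exact permutation p = 0.138 and p = 0.136, adjusted p = 0.165 and p = 0.173). These 6 arrays hold both treatments. The permutations took them as independent, though same-numbered arrays of the 2 groups deviated together, so these p-values may be too small. How many of all genes have such a relation was not counted in either culture.

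Over the 6 arrays without astrocytes the array SD varied less, and GABRA3 rose with it (r = 0.975, rho = 1.0, exact permutation p = 0.00139 and p = 0.00278, adjusted p = 0.00648 and p = 0.0130; r = 0.925 without the 2 farthest arrays). ALDH5A1 rose with it too (r = 0.952, rho = 0.943, exact permutation p = 0.00417 and p = 0.0167, adjusted p = 0.0117 and p = 0.0467, and r = 0.728 without the 2 farthest arrays). With astrocytes ALDH5A1 did not pass (r = −0.631, exact permutation p = 0.174, adjusted p = 0.187), and r was 0.403 without the 2 farthest arrays. ABAT fell (r = −0.904, rho = −0.943, exact permutation p = 0.00417 and p = 0.0167, adjusted p = 0.0117 and p = 0.0467; r = −0.919). INA (r = −0.873) and STMN2 (r = −0.920) rested on the 2 farthest arrays, without which r was 0.165 and −0.475. GAD2 (r = −0.679) and GAD1 (r = 0.692) did not pass.

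**Figure D4:**
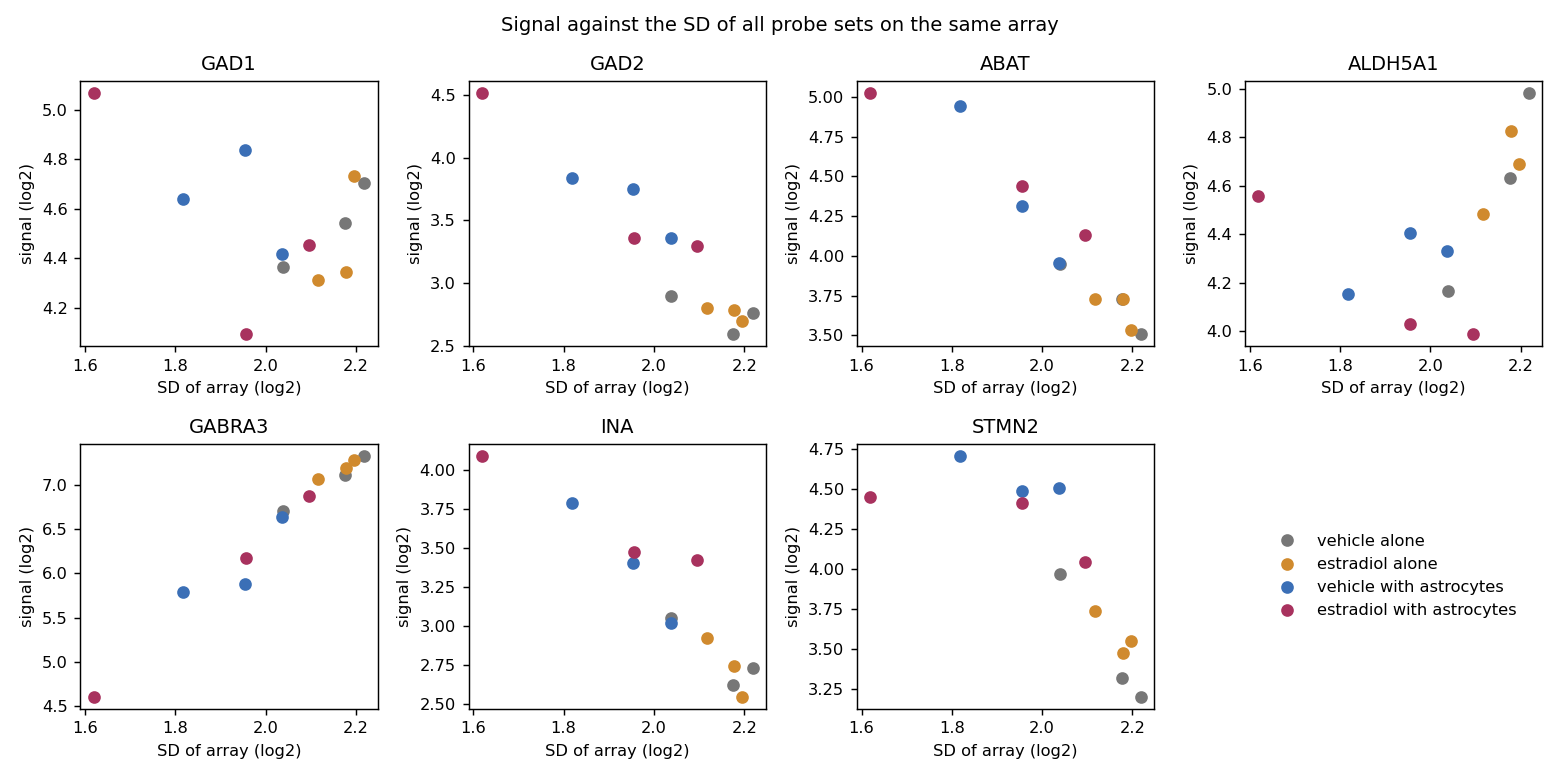
Log2 signal of each gene against the SD of all probe sets on the same array, 12 arrays coloured by group. GABRA3 climbs with the SD in both kinds of culture, GAD2, ABAT and INA fall with it among the arrays with astrocytes, and STMN2 separates by culture with a weaker slope.

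No member passed for estradiol, with or without astrocytes. Without astrocytes the 7 differences ran from −0.07 (GAD1) to 0.13 (GABRA3), and with astrocytes from −0.27 (STMN2) to 0.26 (INA). No gene of all 17958 passed in either comparison or for their difference (0% each), with 1 (0.00557%), 142 (0.791%) and 31 (0.173%) at an unadjusted limma p under 0.05, none of them a member. The 95% intervals of the members were wide. For STMN2 with astrocytes it ran from −0.77 to 0.23. There the 3 arrays under estradiol were all below the 3 under vehicle, as for 0.819% of all genes in that direction alone. No other member separated so, and STMN2 was singled out after its values were seen. For GABRA3 with astrocytes the interval ran from −1.23 to 0.80, for GAD2 from −0.57 to 0.72, for ABAT from −0.50 to 0.76 and for INA from −0.30 to 0.82. These intervals take no account of replicate number, by which arrays of the 2 astrocyte groups deviated together. Within same-numbered arrays, estradiol minus vehicle was 0.18, 0.08 and 0.12 for ABAT, 0.40, 0.30 and 0.07 for INA and −0.47, −0.26 and −0.08 for STMN2, of 1 sign in each. GAD1, GAD2, ALDH5A1 and GABRA3 had both signs, and how many of all genes keep 1 sign was not counted. With replicate number as a block the differences of ABAT, INA and STMN2 each had an SE of 0.22 and an adjusted p of 1. Interaction terms, the difference between the effects of estradiol with and without astrocytes, ran from −0.36 (STMN2, SE 0.32) to 0.32 (INA, SE 0.36), with an adjusted p of 1 for each.

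Some other genes that make, carry or break down GABA rose as well. Beside this and each list below, 24.5% of all genes rose and 23% fell in the combined comparison. At an unadjusted limma p under 0.05, 54.3%, 52.4% and 49.9% of all genes in deciles 2, 3 and 4 rose. Of 11 measured, 4 rose in the combined comparison and none fell: GAD2, ABAT and the membrane transporters SLC6A13 (0.73, adjusted p = 0.0156) and SLC6A12 (0.55, adjusted p = 0.0440). The vesicular transporter SLC32A1 was at 0.49 (adjusted p = 0.0703). The median of the 11 was 0.46, beside 0.07 over all genes and 0.45, 0.46 and 0.43 in deciles 2, 3 and 4, where most of them lay. In the covariate fit it was 0.07, beside 0.04 over all genes. With the array SD as covariate 1 passed, AKR7A2, which reduces succinic semialdehyde, and it was not among the 4. Of 8 genes that supply glutamate and glutamine, the amino acid transporters SLC38A1 (−1.44, adjusted p = 0.0123) and SLC38A2 (−1.52, adjusted p = 0.0176) fell and none rose. Both have high signals, at 9.30 and 10.0 in vehicle alone, and in the covariate fit neither passed and 1 gene of the list rose.

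GABA-A receptor subunits divided. Of 15 measured, 8 rose and 2 fell, where 24.5% of all genes rose and 23% fell. GABRR1 (0.95, adjusted p = 0.00737), GABRQ (0.76, adjusted p = 0.0125) and GABRB2 (0.95, adjusted p = 0.0180) were among those that rose, from means of 3.69, 3.33 and 3.27 in vehicle alone, and GABRE (−0.51, adjusted p = 0.0143) fell with GABRA3, from 6.44. The median was 0.46, beside 0.45, 0.46 and 0.43 for all genes in deciles 2, 3 and 4. With quantile normalization 4 rose and none fell, and with the covariate none rose and 2 fell, GABRE and GABRR2.

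Among the 5 genes of the GABA-B receptor, GABBR1, which encodes the ligand-binding subunit, fell by 0.72 (adjusted p = 0.00442) from 5.41 to 4.73 under vehicle and from 5.27 to 4.503 under estradiol, and passed also with the array SD as covariate. KCTD12, an auxiliary subunit gene, fell by 0.87 (adjusted p = 0.00862), while KCTD8 (0.81, adjusted p = 0.0138), KCTD16 (0.56, adjusted p = 0.0307) and GABBR2 (0.59, adjusted p = 0.0319) rose. Of these 5 genes 1 rose with quantile normalization, 1 with centring and 0 in the covariate fit. Of 11 genes for the scaffold and trafficking of GABA-A receptors, 4 fell and 2 rose, where 23% of all genes fell and 24.5% rose. The counts were 3 and 3 with quantile normalization and 2 and 3 in the covariate fit. GPHN, which encodes the anchoring protein gephyrin, fell by 1.75 (adjusted p = 0.00228) and TRAK1 by 0.89 (adjusted p = 0.00383), both also with the covariate, GABARAPL1 fell by 0.82 (adjusted p = 0.00824), and SHISA7, an auxiliary subunit gene, rose by 1.34 (adjusted p = 0.00624). SLC12A2, the chloride importer that sets how cells respond to GABA, fell by 1.70 (adjusted p = 0.00384), also with the covariate, and SLC12A5, the exporter, was at 0.28 (adjusted p = 0.173).

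Other neuronal genes rose with INA and STMN2, as did 24.5% of all genes, while 23% of all genes fell. At an unadjusted limma p under 0.05 the share of all genes that rose was 54.3% in decile 2, 52.4% in decile 3 and 49.9% in decile 4. Of 12 neuronal cytoskeleton genes 6 rose and none fell, with NEFH, a neurofilament gene, at 0.63 (adjusted p = 0.0169) and NEFL, another, at 0.42 (adjusted p = 0.0183). Of 18 further neuron markers 9 rose, among them the RNA-binding protein gene ELAVL4 (0.92, adjusted p = 0.0117), SNAP25 (0.79, adjusted p = 0.0195) and NCAM1 (0.79, adjusted p = 0.0244), and 2 fell, SYT1 (−0.65, adjusted p = 0.0221) and ENO2. Of 13 transcription factors and peptides of GABA neurons 8 rose, led by the homeobox genes DLX5 (0.75, adjusted p = 0.00631), DLX1 (1.05, adjusted p = 0.00933) and NKX2-1 (0.58, adjusted p = 0.0129), and RELN fell by 0.46 (adjusted p = 0.0168). The medians were 0.56, 0.48 and 0.58, beside 0.45, 0.46 and 0.43 for all genes in deciles 2, 3 and 4. With quantile normalization 4 cytoskeleton genes rose, 2 of the second list rose and 1 fell, and 4 of the third rose and 1 fell. With centring 4 rose in the first, 4 rose and 2 fell in the second, and 6 rose and 1 fell in the third. With the array SD as covariate STMN2 was the only cytoskeleton gene to pass, no gene of the second list passed, and of the third CALB2 rose and RELN fell.

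REST, the repressor whose core motif the GAD2 window holds, fell by 1.72 (adjusted p = 0.00430), from 7.09 to 5.35 under vehicle and from 7.06 to 5.37 under estradiol. Of 9 genes of REST and its corepressors 6 fell and RCOR2 rose, where 23% of all genes fell and 24.5% rose. RCOR1 fell by 1.64 (adjusted p = 0.00411), RCOR3 by 1.17 (adjusted p = 0.00370) and SIN3A by 1.03 (adjusted p = 0.0106). The median of the 9 was −1.03, and −0.12 in the covariate fit. For all genes in deciles 7, 8, 9 and 10, where most of the list lay, it was −0.36, −0.61, −0.68 and −0.52. Of all genes in these deciles 31.3%, 21.5%, 17.5% and 19.7% were positive. With the covariate REST, RCOR1 and RCOR3 still fell and EHMT2 rose. Whether the level of REST bears on GAD2 was not tested.

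Some markers of glia rose with astrocytes, as did 24.5% of all genes, while 23% of all genes fell. In deciles 2, 3 and 4, 54.3%, 52.4% and 49.9% of all genes rose at an unadjusted limma p under 0.05. The median differences of these deciles were 0.45, 0.46 and 0.43. Of 12 astrocyte markers 6 rose and 2 fell, with GFAP at 0.95 (adjusted p = 0.0125) and SLC1A3 at −0.94 (adjusted p = 0.00735). Their mean log2 signal ranged over arrays from 4.74 to 5.001 in vehicle alone, 4.71 to 4.89 in estradiol alone, 4.97 to 5.12 in vehicle with astrocytes and 4.96 to 5.36 in estradiol with astrocytes. Of 13 microglia and macrophage markers 6 rose and none fell (SPI1 at 1.28, AIF1 at 0.96), and their mean ranged from 3.64 to 4.03, from 3.71 to 3.87, from 4.09 to 4.47 and from 3.96 to 5.13 in the same order of groups. Of 11 oligodendrocyte lineage markers 6 rose and none fell (OLIG2 at 1.03, OLIG1 at 0.98), with means from 4.22 to 4.48, from 4.18 to 4.39, from 4.53 to 4.95 and from 4.52 to 5.25. In the covariate fit 2 astrocyte markers rose and 1 fell, 1 microglia marker rose and no oligodendrocyte marker passed, and the list medians went from 0.46 to 0.06, from 0.58 to 0.08 and from 0.59 to 0.12. None of 7 endothelial markers passed (VWF at 0.39 and TEK at 0.34). For comparison, the 12 neuronal cytoskeleton genes had means from 3.77 to 4.23, from 3.73 to 4.02, from 4.23 to 4.54 and from 4.20 to 4.90. No marker was at 0, since the arrays give a positive signal for every probe set. The arrays are human and the astrocytes were from mice, and the part of RNA from other cells in the members' values was not tested.

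**Figure D5:**
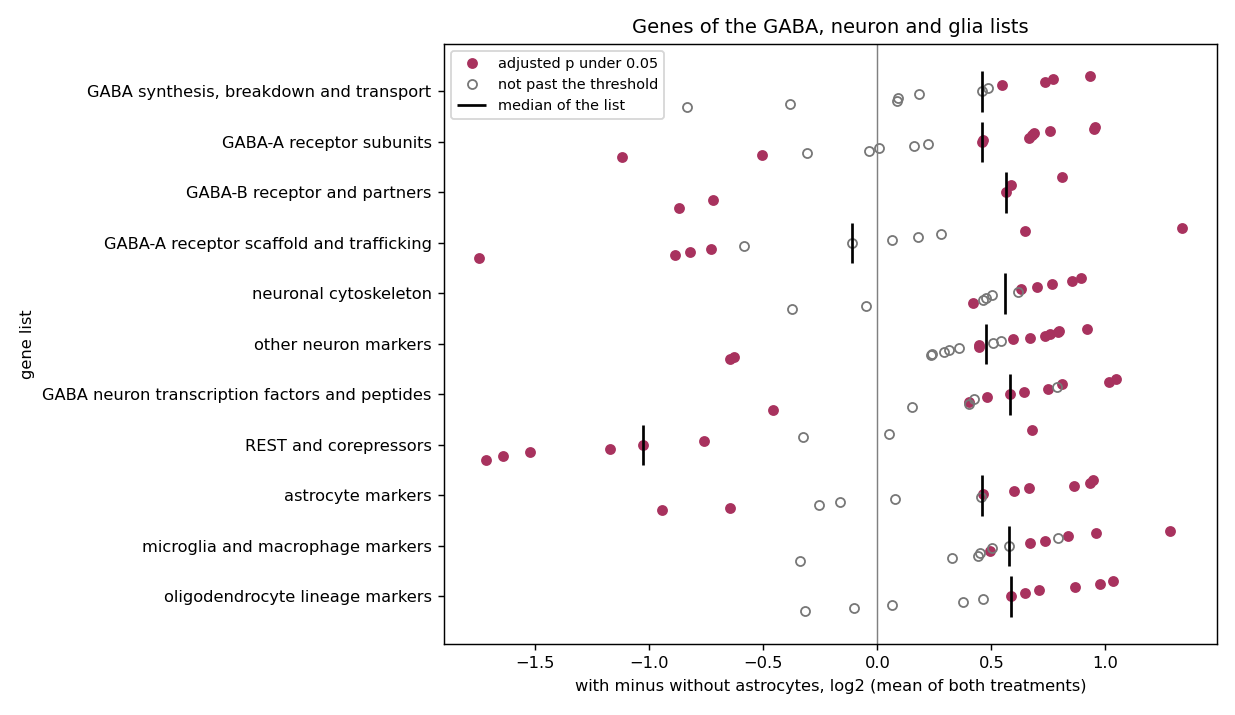
Combined difference with astrocytes (log2) for each measured gene of 11 lists, filled where the adjusted p was under 0.05, with the list's median as a line. Medians lie between 0.46 and 0.59 for the GABA, neuron and glia lists, apart from the scaffold list at −0.11, and at −1.03 for REST and its corepressors.

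None of the 3 genes whose signal was most like that of each member was on the GABA lists. Over the 12 arrays GAD2 was most like KLHDC7A (r = 0.990), TFF1 and SMR3A, ABAT most like POU5F2 (r = 0.994), OR1L3 and FOXE3, and INA most like GRIK3 (r = 0.991), NKX2-3 and PNMA6A. STMN2 was most like CHST2 (r = 0.972), BOP1 and PDLIM2, GABRA3 like HLTF (r = 0.998), ZMYM4 and LRPPRC, ALDH5A1 like TPP1 (r = 0.947), MCM3AP-AS1 and ZNF221, and GAD1 like HSD17B13 (r = 0.882), TMCC1 and KBTBD8. The number of genes with r over 0.9 was 3331 for GABRA3, 2935 for GAD2, 2865 for ABAT and 2505 for INA, against 256 for STMN2, 8 for ALDH5A1 and 0 for GAD1. All these values share the arrays and their range of signal. GRIK3 encodes a kainate receptor subunit, and TFF1 a trefoil peptide of luminal breast cells.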

How the data were processed

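Human Gene ST arrays were read as the authors' deposited log2 signals, 1 value per probe set, in 12 arrays. Per the submitters' processing notes RMA and Partek were used, with versions, role and order not given in the sources used here. Array medians ranged from 4.35 to 4.77, and arrays have no read depth, so their number limits the precision. Of 33297 probe sets 19181 had 1 gene symbol (2055 had several, 12061 were not in the probe table). The highest-mean probe set per gene left 17958 genes, with no filter on low values. Symbols were compared by gene ID with RefSeq (GRCh38.p14), which held the gene IDs of 19143 of these probe sets; no symbol changed.

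All genes were fitted with limma 3.58.1 in R 4.3.3 (1 mean per group over 12 arrays, eBayes), two-sided, with the Benjamini-Hochberg adjustment across the 17958 genes and a threshold of 0.05. An exact test of 3 arrays against 3 cannot go below 0.1. The fit was tested on simulated data. The members, lists and alternatives were chosen with earlier results of these data known. Named genes are the members, the 3 genes most correlated with each (microRNA, small nucleolar and open reading frame names left out), up to 4 per pathway list by smallest p in the combined comparison (the 2 smallest where none passed) and the 2 largest differences per list of other cell types. ENO2, RCOR2, AKR7A2, GABRR2, CALB2, EHMT2, GABBR2, SLC32A1, VIM, S100A4, ESR1, FOXA1 and ERBB2 were named after their values were seen. Alternatives were a block for replicate number, quantile normalization, centring, a level filter, the mean of probe sets, trend and robust options, the array SD, compared groups only and arrays left out; the runs without replicate 2 of both astrocyte groups, and all list counts under alternatives, were added after the values were seen. Between the 2 astrocyte groups, same-number arrays deviated together (r = 0.789, 0.756 and 0.214), so these values, not the labels, pair them. For estradiol alone r was 0.538, 0.485 and −0.016 against estradiol with astrocytes, and 0.512, 0.457 and 0.030 against vehicle with astrocytes. Vehicle alone gave r of both signs with each other group. Pairing by number in these other comparisons is thus unclear.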

Additional observations from a re-analysis of the deposited data

How the results depend on the processing

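Of 832 alternative values of the 7 genes, 732 kept direction and side of the threshold, 28 came to pass, 19 no longer passed and 53 changed sign; the cause was not tested. All genes passing numbered 10 under vehicle, 2366 under estradiol and 8528 in the combined comparison. The replicate block, whose numbers pair the astrocyte groups most clearly, gave 2583 and 6691 for the single treatments. In these 1 (STMN2) and 5 members (GAD2, ABAT, GABRA3, INA, STMN2) passed, and no other member's call changed. Quantile normalization gave 542 genes and 0 members under estradiol, and GAD1 at −0.010, −0.041 and −0.025 (vehicle, estradiol, combined). Centring gave 4 genes under vehicle, moved the median of all genes from 0.07 to −0.10 in the combined comparison, and put GAD1 at −0.052, −0.11 and −0.078. Among genes above the median level 5 passed under vehicle and 4118 combined, with 0 members under estradiol and 1 combined (GABRA3), since the others that had passed lie below that level. Trend and robust options gave 2 members under estradiol (GAD2, INA).

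With the array SD as covariate 1166, 469 and 2584 genes passed, with 1, 0 and 1 members (STMN2 both times), GAD1 was −0.11, −0.20 and −0.15, 1 gene passed for estradiol with astrocytes, and GAD2 was −0.033 there and −0.091 for the interaction. With only the compared groups in the fit 1594 genes and 2 members (GAD2, STMN2) passed under vehicle, and 0 genes and 0 members under estradiol. Without replicate 2 of both astrocyte groups 1004 genes and 2 members (GAD2, STMN2) passed under vehicle. GAD1 was then −0.19 under estradiol and −0.049 combined, GAD2 −0.22 for estradiol with astrocytes and −0.23 for the interaction, and GABRA3 0.26 and 0.13.

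Leaving out 1 array at a time, genes passing ranged from 2 to 6107 under vehicle (most without estradiol with astrocytes replicate 2), from 3 to 9222 under estradiol (most without estradiol with astrocytes replicate 1) and from 4770 to 11339 combined, and members passing from 0 to 5, from 0 to 5 and from 4 to 6. The difference of GAD1 ranged from −0.0071 to 0.20 under vehicle, −0.19 to 0.30 under estradiol and −0.047 to 0.20 combined. For estradiol alone the ranges were −0.21 to 0.010 (GAD1), −0.066 to 0.085 (GAD2), −0.18 to 0.044 (ABAT), −0.14 to 0.27 (ALDH5A1), −0.044 to 0.27 (GABRA3), −0.16 to 0.064 (INA) and −0.055 to 0.33 (STMN2). For estradiol with astrocytes they were −0.36 to 0.13 (GAD1), −0.32 to 0.29 (GAD2), −0.12 to 0.40 (ABAT) and −0.71 to 0.42 (GABRA3). For the interaction they were −0.29 to 0.20 (GAD1), −0.33 to 0.28 (GAD2), −0.053 to 0.46 (ABAT), −0.37 to 0.034 (ALDH5A1) and −0.84 to 0.29 (GABRA3). With 3 arrays in each group and no detection call, low signals limit what can be read from GAD2, INA, STMN2 and ABAT. GAD2 and INA lay below the array median on all 12 arrays, STMN2 on 11 and ABAT on 10.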
